A study of Homo sapiens with 35 samples.

Results

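Immediate early transcription factors are encoded by the genes a cell switches on first after a signal, with proteins already present. The 10 described here are EGR1, EGR2, EGR3, FOS, FOSB, JUN, JUNB, ATF3, NR4A3 and KLF2. Each was taken as the row of its own symbol in both deposited count tables, and all 10 were found among 59428 gene rows. They were followed through 35 poly(A) RNA-seq libraries in 13 groups from 4 acute myeloid leukaemia cell lines. The series title names the question of the study, which is whether SUV39H1 and SUV39H2, methyltransferases that build the silencing mark H3K9me3, hold back immune signalling that transposable elements would trigger.

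Groups are named as the labels give them. SKO libraries come from cells with a guide RNA to SUV39H1, DKO libraries from cells with guides to SUV39H1 and SUV39H2, and sgControl libraries from cells with a control guide. U937 and THP-1, both lines with monocytic features, had DKO, SKO and sgControl groups of 3 libraries each. U937 cells treated with TPA had the same groups, again with 3 libraries each. MOLM-13 had 2 SKO and 2 sgControl libraries, and OCI-AML-3 had 2 DKO and 2 sgControl libraries. TPA is the usual abbreviation of a phorbol ester that activates protein kinase C. The labels give neither its full name nor a dose or time. They do not say whether replicates were grown as separate cultures. A p-value here therefore speaks of library-to-library spread, which may be technical only. Column names show the same SUV39H1 guide in the SKO and DKO columns of untreated U937 and THP-1, and another SUV39H2 guide in each line. They also show a clone number in untreated U937 DKO and in THP-1 sgControl and SKO, so replicates there may all stem from 1 clone. In both lines the DKO column names carry another number code than those of SKO and sgControl, or none, and what the code stands for is not given. DKO, clone and code cannot be told apart there. In THP-1, SKO and sgControl may each be a single clone, so SKO and clone cannot be told apart in that line. The TPA-treated libraries were deposited in another table than the untreated ones, so that TPA and table cannot be told apart either. Their column names give neither a clone nor a guide number. Clone or guide may thus also differ between TPA-treated and untreated libraries of the same group name, and between knockout effects with and without TPA.

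In resting cells many promoters of this gene class are loaded with serum response factor, its ternary complex partners or CREB. Kinases of the ERK, p38 and protein kinase C pathways act on these proteins, and transcription starts without new protein synthesis. The EGR proteins are zinc finger factors that bind GC-rich sites. FOS and FOSB pair with JUN or JUNB to form AP-1. ATF3 is a related stress-induced factor, NR4A3 is an orphan nuclear receptor, and KLF2 is a zinc finger factor known for quiescence in monocytes and T cells. The messages of most of these genes decay fast. In monocytic leukaemia lines, phorbol ester is a textbook inducer of both this programme and macrophage-like maturation.

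The promoters of the members named most often below are shown because many regulatory sites of this gene class lie close to the start. Each run is the 250 bases before a RefSeq start (GRCh38.p14), 5′ to 3′ on the gene's strand, and capitals mark the motifs found in either direction. The windows are chr5:138465229-138465478 (+) for EGR1, chr14:75278578-75278827 (+) for FOS, chr1:58784048-58784297 (-) for JUN, chr10:62816367-62816616 (-) for EGR2, chr1:212565157-212565406 (+) for ATF3 and chr9:99821635-99821884 (+) for NR4A3.
EGR1: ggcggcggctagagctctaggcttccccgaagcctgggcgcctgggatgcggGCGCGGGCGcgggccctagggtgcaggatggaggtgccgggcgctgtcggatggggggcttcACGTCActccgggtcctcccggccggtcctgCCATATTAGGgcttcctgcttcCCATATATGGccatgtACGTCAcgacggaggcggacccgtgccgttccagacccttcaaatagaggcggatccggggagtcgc
FOS: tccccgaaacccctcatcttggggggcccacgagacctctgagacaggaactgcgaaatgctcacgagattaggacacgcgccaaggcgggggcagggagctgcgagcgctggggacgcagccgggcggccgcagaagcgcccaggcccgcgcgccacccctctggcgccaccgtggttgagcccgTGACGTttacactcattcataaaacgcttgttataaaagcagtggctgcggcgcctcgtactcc
JUN: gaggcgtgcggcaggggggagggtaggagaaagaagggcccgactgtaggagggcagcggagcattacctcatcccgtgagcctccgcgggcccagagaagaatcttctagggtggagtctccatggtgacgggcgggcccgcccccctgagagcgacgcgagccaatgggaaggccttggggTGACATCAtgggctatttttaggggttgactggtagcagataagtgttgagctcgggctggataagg
EGR2: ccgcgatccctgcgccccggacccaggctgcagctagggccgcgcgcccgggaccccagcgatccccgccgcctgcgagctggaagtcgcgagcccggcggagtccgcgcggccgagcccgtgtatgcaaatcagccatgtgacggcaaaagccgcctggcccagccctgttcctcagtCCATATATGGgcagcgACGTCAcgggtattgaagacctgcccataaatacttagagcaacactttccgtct
ATF3: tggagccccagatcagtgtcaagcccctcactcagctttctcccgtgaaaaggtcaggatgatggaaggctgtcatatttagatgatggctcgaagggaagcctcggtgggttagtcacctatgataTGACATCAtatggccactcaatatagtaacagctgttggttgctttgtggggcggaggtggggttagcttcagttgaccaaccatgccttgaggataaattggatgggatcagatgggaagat
NR4A3: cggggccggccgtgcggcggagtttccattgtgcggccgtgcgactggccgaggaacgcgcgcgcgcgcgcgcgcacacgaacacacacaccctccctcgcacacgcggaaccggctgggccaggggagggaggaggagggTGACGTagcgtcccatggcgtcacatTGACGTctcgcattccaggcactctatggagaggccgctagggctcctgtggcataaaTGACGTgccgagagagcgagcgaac

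The motifs searched on both strands were the CArG box, bound by serum response factor, the core TGACGT of the cyclic AMP response element (CRE), the whole CRE TGACGTCA, the JUN and ATF variant TGACATCA, the AP-1 site TGANTCA and the EGR site GCGNGGGCG. The whole CRE contains the core, and each of its matches would count as a core as well. Only the 250 bases before each start were searched, so sites farther upstream, in FOS or any other member, were not seen. Of 9 members searched (12 windows), 2 held a CArG box, EGR1 with 2 and EGR2 with 1. These were 2 of the 12 windows, against 1.16% of all 35116 windows in the RefSeq table. The CRE core stood in 5 of the 9 members, with 3 matches in NR4A3, 2 in EGR1 and 1 each in EGR2, FOS and FOSB. These were 5 of the 12 windows, against 7.10% of all windows. JUN and ATF3 held TGACATCA, which 2.37% of all windows hold. EGR1 and KLF2 held the EGR site, which 8.41% of all windows hold. The whole CRE (1.65% of all windows) and the AP-1 site (6.57%) were in none of the 12 windows, and JUNB held none of the 6 motifs. EGR2 has 3 RefSeq starts and ATF3 has 2, and counts per gene do not tell which start was used. The EGR2 window shown is the only 1 of its 3 with a match, and the ATF3 window shown is the only 1 of its 2. No sequence is shown for EGR3.

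Totals of counted reads ran between 31985767 and 61178704 per library. Levels are CPM, counts scaled to a common library size, after trimmed mean of M-values (TMM) scaling of all 35 libraries, and log2 fold changes, given with their standard errors (SE), come from edgeR fits of each line. The myeloid markers SPI1, PTPRC and CD33 were present in every group, while the monocyte marker CD14 averaged at most 26.6 CPM in a group. Other genes of the myeloid list differed widely between groups. LYZ averaged 92.2 CPM in THP-1 sgControl and 7606 in MOLM-13 SKO. MPO averaged 352 CPM in MOLM-13 sgControl, and CSF1R 193 CPM in THP-1 sgControl. Some genes were low in at least part of the groups. CD68 averaged at most 0.651 CPM in a group and MPO at most 0.468 CPM in a U937 group. CSF1R and ITGAM averaged 4.76 and 4.22 CPM in U937 sgControl. The summed myeloid list ran from 669 to 9133 CPM per library. Lymphoid list sums (3.47 to 210.8 CPM) came mostly from NKG7, and sums of the stromal, endothelial and epithelial list (69.4 to 832 CPM) mostly from PECAM1, while MS4A1, EPCAM and CDH5 were at or near 0. Erythroid and megakaryocyte markers summed to at most 4.90 CPM. SUV39H1 averaged 83.0 CPM in U937 DKO and 113 in U937 SKO against 66.3 in U937 sgControl, and 55.2 in THP-1 DKO and 95.5 in THP-1 SKO against 35.3 in THP-1 sgControl. It averaged 7.63 CPM in MOLM-13 SKO against 28.7 in MOLM-13 sgControl, 3.48 in OCI-AML-3 DKO against 35.8 in OCI-AML-3 sgControl, and, under TPA, 22.3 in U937 DKO and 53.5 in U937 SKO against 36.8 in U937 sgControl. SUV39H2 averaged 32.8 CPM in U937 DKO against 43.0 in U937 sgControl, 13.8 in THP-1 DKO against 31.9 in THP-1 sgControl, 19.1 in OCI-AML-3 DKO against 24.1 in OCI-AML-3 sgControl, and 9.91 in U937 TPA DKO against 20.2 in U937 TPA sgControl. In libraries with the SUV39H1 guide alone, SUV39H2 averaged 35.6 CPM in U937 SKO, 20.5 in THP-1 SKO, 20.8 in U937 TPA SKO and 12.3 in MOLM-13 SKO, the last against 27.5 in MOLM-13 sgControl. SUV39H1 was thus not lower in the libraries labelled SKO or DKO of untreated U937 and THP-1. Counts over a whole gene do not show a guide's cut, so the directions below are those of libraries labelled SKO and DKO.

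Across the 13 groups the members split into a block that peaked in TPA-treated U937 DKO cells and others that peaked elsewhere. EGR2, EGR3, FOSB, JUN, JUNB, ATF3 and NR4A3 had their highest group mean in U937 TPA DKO. EGR1 was highest in THP-1 DKO at 202 CPM, FOS in MOLM-13 SKO at 129 CPM and KLF2 in OCI-AML-3 sgControl at 13.9 CPM. EGR2 had the widest span, with means of 137 CPM in U937 TPA DKO and 0.0603 CPM in MOLM-13 sgControl, where 1 library had 0 reads. JUNB had the narrowest, with 195 CPM in U937 TPA DKO and 17.7 CPM in THP-1 SKO, an 11.03-fold span. In the order of group means, many neighbours overlapped in their libraries. For FOS these included the top pair, MOLM-13 SKO and THP-1 DKO, and the 3 untreated U937 groups at the bottom. For EGR2 the 6 groups between U937 DKO and OCI-AML-3 sgControl each overlapped with the next.

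**Figure D1:**
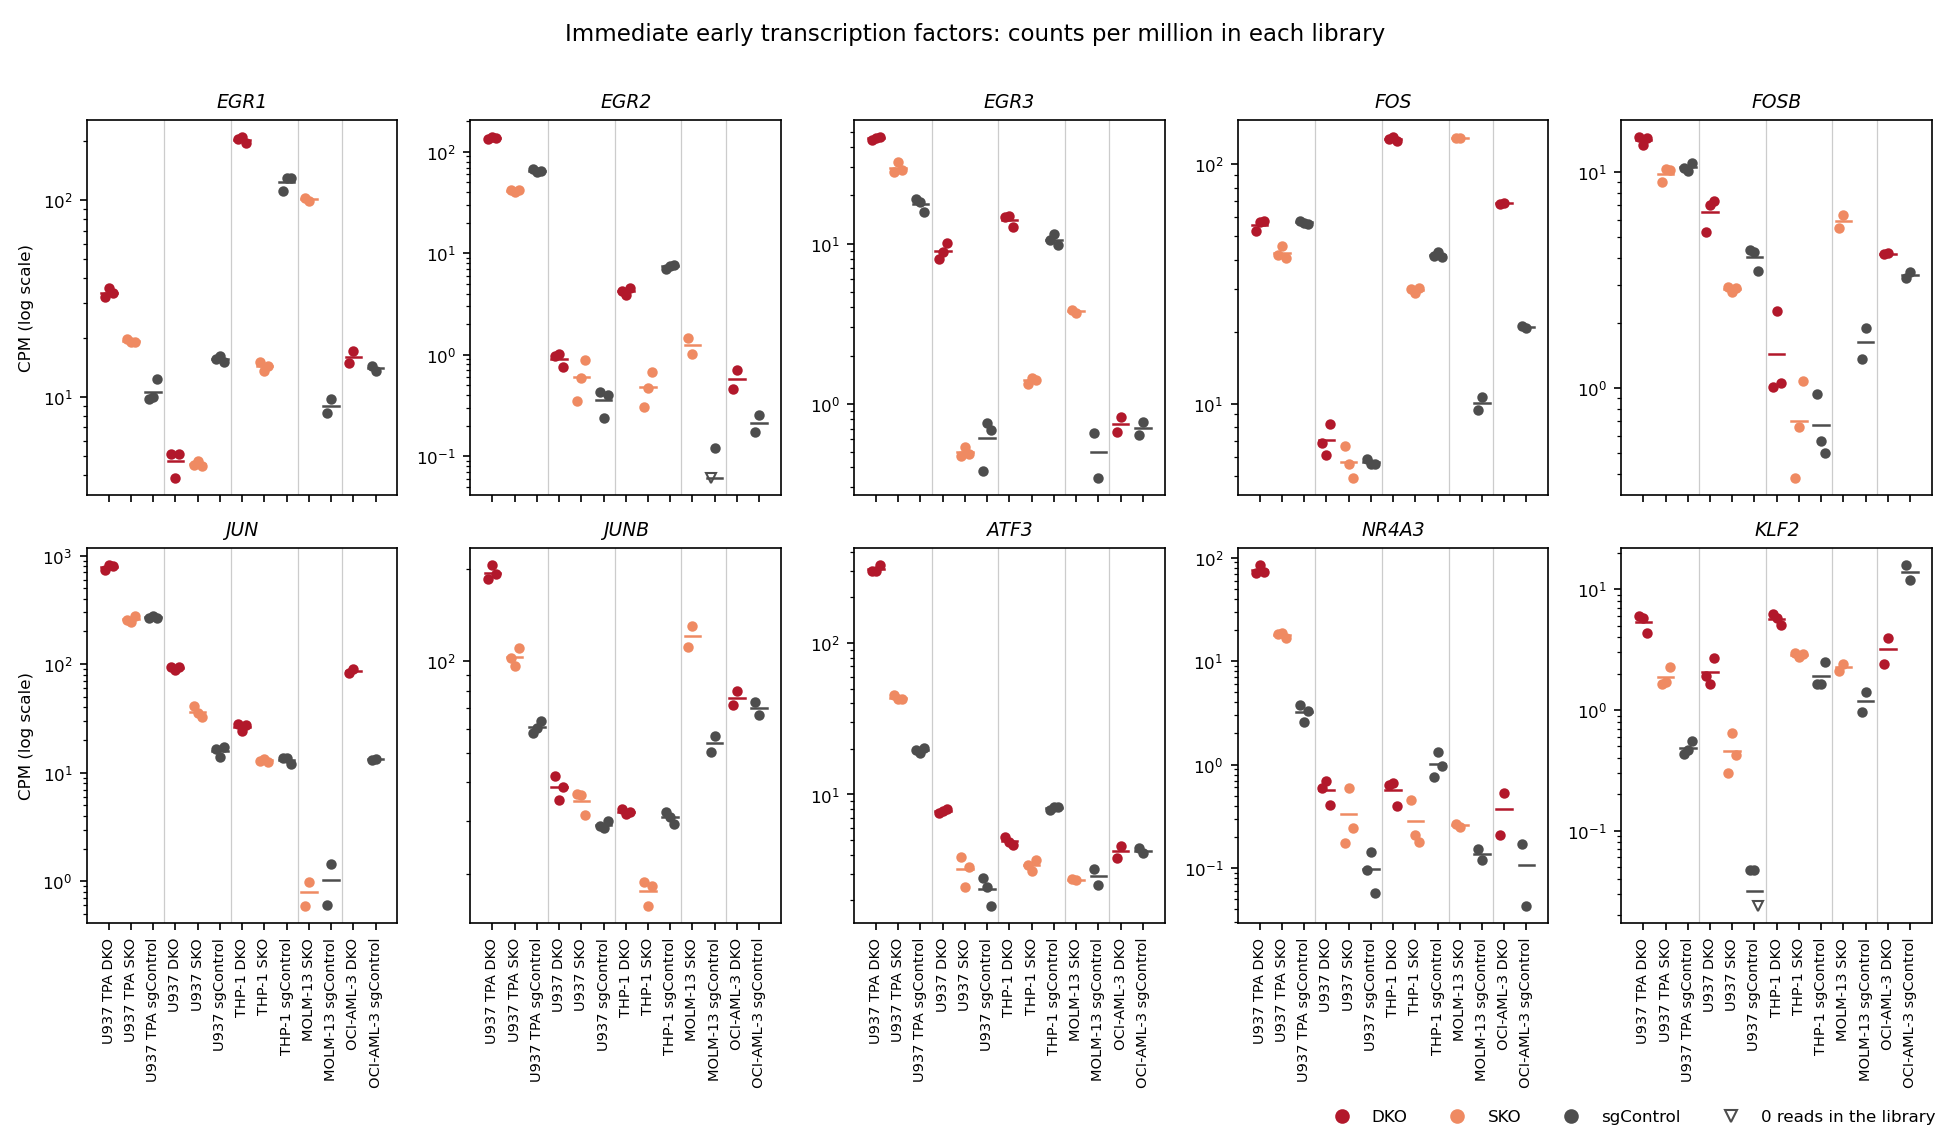
CPM (log scale) of the 10 genes in each library of the 13 groups, with 1 point per library, a bar at each group mean and an open triangle at the bottom for a library with 0 reads. In 7 of the 10 panels the TPA-treated U937 DKO libraries stand highest, while EGR1, FOS and KLF2 are highest in THP-1 DKO, MOLM-13 SKO and OCI-AML-3 sgControl.

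Per kilobase of exon, which allows levels to be set beside each other between genes, JUN or JUNB led in 11 of the groups and EGR1 in THP-1 DKO and THP-1 sgControl. In U937 TPA DKO, JUN stood at 216 CPM per kilobase, followed by JUNB at 106.5, ATF3 at 76.1 and EGR2 at 33.6. JUN was far lower in MOLM-13, with 0.218 CPM per kilobase in MOLM-13 SKO and 0.283 in MOLM-13 sgControl, while JUNB was first there with 65.8 and 29.3. NR4A3 was last or next to last in every group except U937 TPA DKO, where it was in place 6 with 12.04 CPM per kilobase, and U937 TPA SKO, where it was in place 8.

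**Figure D2:**
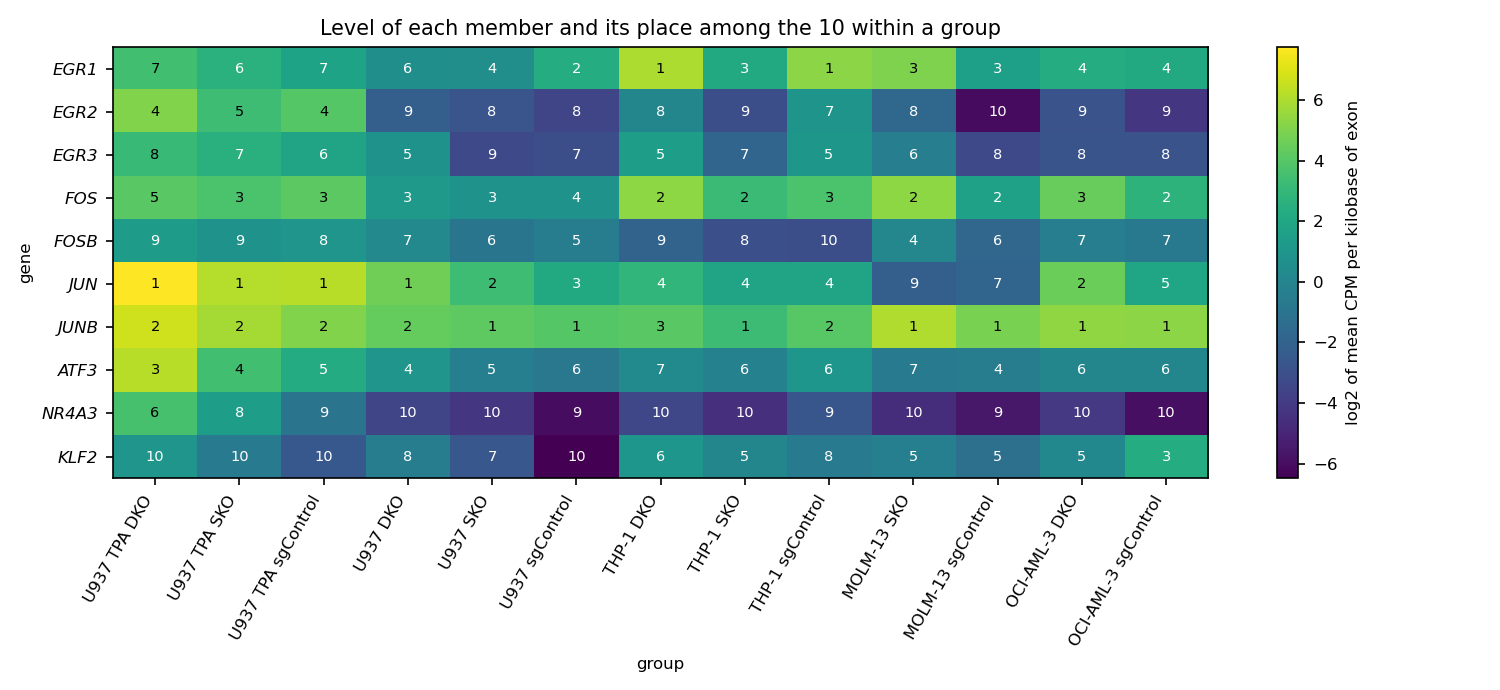
Colour gives the log2 of the mean CPM per kilobase of exon for each gene (rows) in each group (columns), and the number in a cell is the gene's place among the 10 within that group. JUN and JUNB hold places 1 and 2 in the 3 TPA-treated U937 groups, and JUN is in place 9 in MOLM-13 SKO.

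TPA treatment of U937 cells was the condition with the broadest rise. In bulk RNA, a change in the share of cells expressing a gene and a change in RNA per cell cannot be told apart. All 10 members were higher with TPA than without in U937 DKO (of the 16989 genes tested, 36.9% were called higher and 36.2% lower) and in U937 SKO (31.5% and 31.4%). In U937 sgControl 9 were higher (34.6% of genes) and EGR1 was lower (33.2% of genes were called lower). The median log2 fold change of the 10 was 2.97 in DKO, 2.89 in SKO and 3.54 in sgControl, beside 0.03, 0.04 and 0.05 over all genes tested. Summed heat shock genes, listed here as a sign of cell handling, were 3368 to 3455 CPM in U937 TPA DKO against 3772 to 4057 in U937 DKO, 3198 to 3254 in U937 TPA SKO against 5313 to 5490 in U937 SKO, and 3096 to 3199 in U937 TPA sgControl against 7506 to 7647 in U937 sgControl. Within the list HSPA1A was higher with TPA in DKO cells, at 91.4 against 17.8 CPM (log2 fold change 2.40 ± 0.07), and HSPA1B at 113 against 25.1 CPM (2.21 ± 0.07). There 6 of the 8 genes of the list were higher and 2 lower, with a median log2 fold change of 0.34. The stromal, endothelial and epithelial list summed to 802 to 832 CPM in U937 TPA DKO against 269 to 285 in U937 DKO, and to 603 to 621 in U937 TPA sgControl against 90.8 to 98.7 in U937 sgControl. The part of these lists in the result was not tested.

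The untreated U937 knockouts differed between members. In U937 DKO against sgControl, 9 members were higher and EGR1 was lower, where 33.2% and 34.5% of the 14915 genes tested were called higher and lower. The members' median log2 fold change was 1.53, beside -0.01 over all genes. In U937 SKO, 5 were higher (30.7% of genes), 2 were lower (31.2% of genes) and 3 were not called, with a median of 0.35 beside 0.00. Between DKO and SKO directly, 5 members were higher in DKO and none was lower, against 24.1% and 24.9% of genes. The summed heat shock list was 3772 to 4057 CPM in U937 DKO and 5313 to 5490 in U937 SKO against 7506 to 7647 in U937 sgControl, and the summed myeloid list was 1254 to 1307 CPM in U937 DKO and 1267 to 1288 in U937 SKO against 669 to 681 in U937 sgControl. Their part in the result was not tested.

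Under TPA, 9 members were higher in U937 DKO than in sgControl and none was lower, where 34.1% of the 16246 genes were called higher and 36.5% lower. The members' median log2 fold change was 1.61, beside -0.05 over all genes. In U937 TPA SKO, 6 were higher (25.8% of genes) and 2 lower (24.6% of genes), with a median of 0.76 beside 0.00. All 10 were higher in TPA-treated DKO than in TPA-treated SKO cells, where 31.3% of genes were called higher and 32.4% lower. Heat shock sums were 3368 to 3455 CPM in U937 TPA DKO and 3198 to 3254 in U937 TPA SKO against 3096 to 3199 in U937 TPA sgControl, and within that list HSPA1A was 91.4 CPM in DKO against 17.9 in sgControl (log2 fold change 2.36 ± 0.06). The myeloid list summed to 1627 to 1674 CPM in U937 TPA DKO and 1333 to 1365 in U937 TPA SKO against 1370 to 1394 in U937 TPA sgControl, with ITGAM at 330 CPM in DKO against 98.4 in sgControl but LYZ at 162 against 634 CPM. The stromal, endothelial and epithelial list summed to 802 to 832 CPM in U937 TPA DKO and 656 to 668 in U937 TPA SKO against 603 to 621 in U937 TPA sgControl, with VWF at 169 against 20.2 CPM and PECAM1 at 646 against 591 CPM in DKO and sgControl, and CDH5 at 0 in both. The part of these lists in the result was not tested.

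In THP-1, EGR1, EGR3, FOS and JUNB were called higher in DKO and lower in SKO, while EGR2 and ATF3 were lower and KLF2 higher in both. In THP-1 DKO 7 members were higher than in sgControl (31.9% of 18585 genes) and 2 were lower (33.7% of genes), with a median log2 fold change of 0.67 beside 0.05 over all genes. In THP-1 SKO 7 members were lower (22.8% of genes) and KLF2 alone was higher (20.6% of genes), with a median of -1.02 beside 0.01. DKO over SKO gave 9 higher members and none lower, against 25.3% and 28.5% of genes. Heat shock sums were 3501 to 3601 CPM in THP-1 DKO and 6177 to 6829 in THP-1 SKO against 6876 to 7332 in THP-1 sgControl. The myeloid list summed to 1745 to 1762 CPM in THP-1 DKO and 1434 to 1502 in THP-1 SKO against 1319 to 1402 in THP-1 sgControl, with LYZ at 479 and 268 against 92.2 CPM. Not all genes of the list were higher. SPI1 was 174 CPM in THP-1 DKO against 239 in sgControl, and ITGAM was 34.1 CPM in THP-1 SKO against 58.2 in sgControl. The part of both lists in the result was not tested.

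With 2 libraries per group, MOLM-13 SKO had 7 higher members and none lower among the 9 tested, where 31.8% of 15472 genes were called higher and 32.2% lower. The median log2 fold change was 1.85, beside 0.02 over all genes. OCI-AML-3 DKO had 3 higher members (24.3% of 16175 genes) and 1 lower (25.6% of genes) among the 9 tested, with a median of 0.20 beside 0.02. NR4A3 did not pass the filter on low counts in either line. The myeloid list summed to 8980 to 9133 CPM in MOLM-13 SKO against 1702 to 1784 in MOLM-13 sgControl, with LYZ (lysozyme) at 7606 against 581 CPM but MPO (myeloperoxidase) at 119 against 352 CPM. The heat shock list summed to 3744 to 3838 CPM in MOLM-13 SKO against 6266 to 6393 in MOLM-13 sgControl. In OCI-AML-3 the myeloid list summed to 2046 to 2070 CPM in DKO against 1045 to 1097 in sgControl. Within it LYZ was 1092 against 234 CPM, but CEBPA was 135 against 170 CPM. The heat shock list summed to 4140 to 4219 CPM in OCI-AML-3 DKO against 5134 to 5316 in sgControl. The stromal, endothelial and epithelial list summed to 228 to 231 CPM in OCI-AML-3 DKO against 69.4 to 72.2 in OCI-AML-3 sgControl. The part of these lists in the results was not tested.

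**Figure D3:**
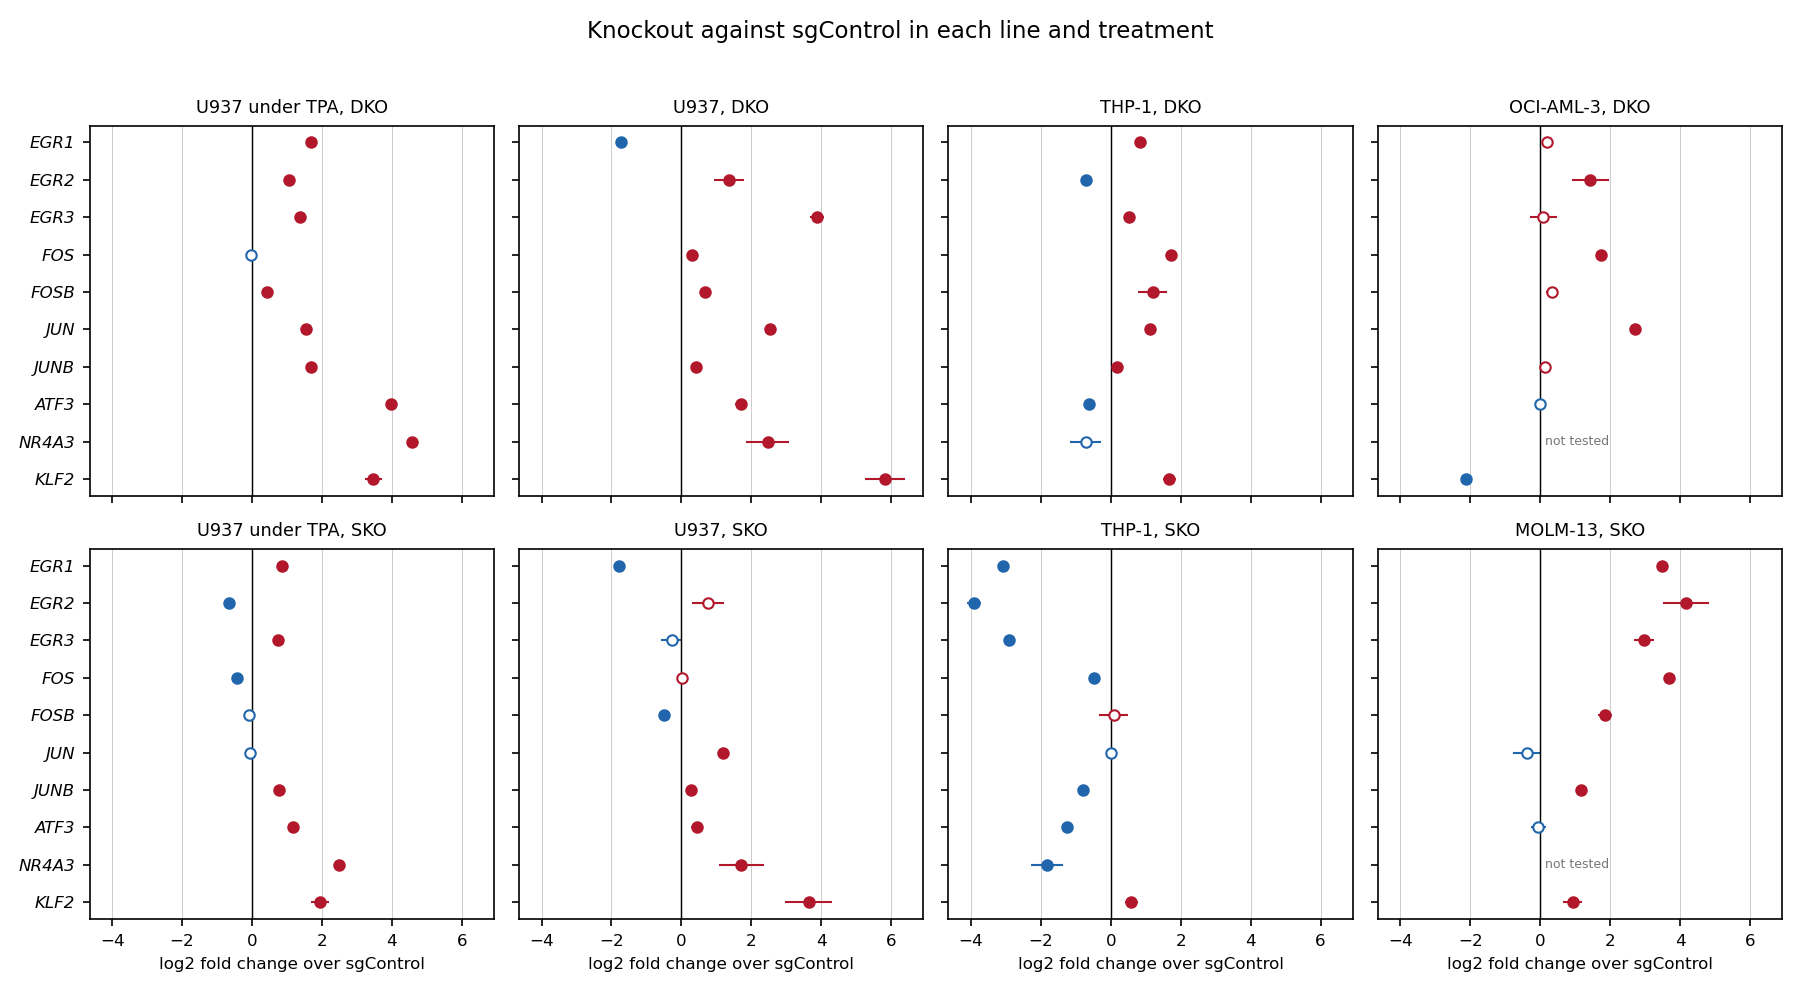
Log2 fold change over sgControl (x axis) of each gene in the DKO panels (top) and SKO panels (bottom), with bars of 1 SE. Filled points passed an adjusted p of 0.05 and open points did not, and red is higher and blue lower than sgControl. EGR1 is lower in untreated U937 DKO and SKO and in THP-1 SKO, and higher in THP-1 DKO, in MOLM-13 SKO and in both TPA-treated knockouts.

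EGR1, the best-known EGR factor and a regulator of monocyte maturation, changed direction between settings. In untreated U937 cells it was 5.14, 3.85 and 5.12 CPM in DKO libraries and 4.52, 4.70 and 4.44 in SKO libraries, against 15.6, 16.2 and 15.02 in sgControl libraries. Both knockout groups lay wholly below sgControl. The log2 fold changes were -1.74 ± 0.11 in DKO (adjusted p = 4.8e-14) and -1.78 ± 0.11 in SKO (adjusted p = 3.9e-14). Under TPA the order was turned round. EGR1 was 32.1, 35.7 and 33.9 CPM in DKO and 19.6, 18.9 and 18.9 in SKO libraries, against 9.70, 9.93 and 12.3 in sgControl libraries. The changes there were 1.69 ± 0.08 in DKO (adjusted p = 2.1e-16) and 0.86 ± 0.08 in SKO (adjusted p = 1.7e-09).

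The difference between TPA-treated and untreated libraries accordingly had a different sign by guide group for EGR1. The labels do not show that both sides came from the same knockout cells. TPA over untreated gave log2 fold changes of 2.89 ± 0.10 in DKO, 2.10 ± 0.10 in SKO and -0.55 ± 0.09 in sgControl cells. The difference between the DKO effects with and without TPA was 3.44 ± 0.14 (adjusted p = 7.4e-22), and that between the SKO effects 2.65 ± 0.14 (adjusted p = 7.1e-18).

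In THP-1, EGR1 was 203, 208 and 195 CPM in DKO and 14.96, 13.5 and 14.4 in SKO libraries, against 111, 129 and 129 in sgControl libraries. DKO stood above sgControl (log2 fold change 0.82 ± 0.05, adjusted p = 1.7e-14) and SKO far below it (-3.10 ± 0.06, adjusted p = 2.7e-26), with no overlap of groups. In MOLM-13 it was 103 and 99.2 CPM in SKO libraries, against 8.30 and 9.77 in sgControl libraries, a log2 fold change of 3.48 ± 0.06 (adjusted p = 9.3e-29). OCI-AML-3 showed no call, with 14.9 and 17 CPM in DKO and 14.4 and 13.5 in sgControl libraries (0.20 ± 0.10, adjusted p = 0.088).

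EGR2, known from myelination and from monocyte and macrophage development, had the largest log2 fold change with TPA of all members in each guide group. In U937 it was 133, 139 and 138 CPM in TPA-treated DKO, 42.0, 40.5 and 41.7 in TPA-treated SKO and 68.0, 63.6 and 64.5 in TPA-treated sgControl libraries. Untreated U937 libraries of all 3 guides ran between 0.236 and 1.02 CPM. TPA over untreated gave log2 fold changes of 7.26 ± 0.10 in DKO, 6.16 ± 0.12 in SKO and 7.54 ± 0.12 in sgControl. Under TPA the DKO libraries lay above and the SKO libraries below sgControl, with changes of 1.07 ± 0.04 (adjusted p = 1.8e-18) and -0.65 ± 0.04 (adjusted p = 1.1e-12). Without TPA only DKO was called (1.36 ± 0.44, adjusted p = 0.0072), at 98 reads in the DKO group against 42 in the sgControl group. In THP-1 it was 4.27, 3.89 and 4.57 CPM in DKO and 0.305, 0.467 and 0.681 in SKO libraries, against 7.02, 7.53 and 7.69 in sgControl libraries. Both were lower (-0.70 ± 0.16 in DKO, -3.91 ± 0.20 in SKO), and the genes of the 20 Mb bin of chromosome 10 that holds EGR2 had medians of -1.09 in DKO and -0.998 in SKO, over 78 genes. EGR2 was thus lower by less than its bin median in DKO and by more in SKO. In MOLM-13 it was 1.44 and 1.02 CPM in SKO libraries against 0 and 0.121 in sgControl libraries (95 reads against 6, a ratio of reads per total of 17.6 with an exact 95% counting interval of 7.81 to 49.3). That interval covers counting error only and is too narrow if both reads of a pair were counted. In OCI-AML-3 EGR2 was 0.457 and 0.698 CPM in DKO against 0.171 and 0.255 in sgControl libraries. The OCI-AML-3 call (1.44 ± 0.54, adjusted p = 0.022) did not pass with DESeq2 (adjusted p = 0.17) or with any of the 4 libraries left out.

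EGR3, a close relative of EGR2, was 7.98, 8.89 and 10.1 CPM in untreated U937 DKO and 0.474, 0.534 and 0.487 in SKO libraries, against 0.380, 0.755 and 0.685 in sgControl libraries. The DKO libraries stood apart from both other groups, at 3.88 ± 0.21 over sgControl (adjusted p = 5.5e-16) and 4.16 ± 0.22 over SKO. SKO overlapped with sgControl (-0.28 ± 0.29, adjusted p = 0.43). With TPA, EGR3 was 44.4, 45.6 and 46.2 CPM in DKO and 28.1, 32.2 and 28.9 in SKO libraries, against 19.1, 18.3 and 15.8 in sgControl libraries. The groups did not overlap, but the DKO change was smaller than without TPA, 1.36 ± 0.07, and the difference between the DKO effects was -2.50 ± 0.19 (adjusted p = 1.4e-13). EGR3 was also higher in THP-1 DKO (0.51 ± 0.10), lower in THP-1 SKO (-2.91 ± 0.13, means of 1.40 against 10.6 CPM) and higher in MOLM-13 SKO (2.96 ± 0.29, 3.78 against 0.499 CPM). Of its exon bases, 164 are shared with an annotated gene on the other strand. Counting was without strand for untreated U937 and THP-1, and for TPA-treated U937 and MOLM-13 the setting is not given.

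FOS, the partner of JUN in AP-1 that cannot pair with itself, differed by line. In MOLM-13 it was 129 and 128 CPM in SKO libraries against 9.39 and 10.7 in sgControl libraries, a log2 fold change of 3.69 ± 0.06 (adjusted p = 1.5e-30). In OCI-AML-3 it was 68.4 and 69.3 CPM in DKO against 21.1 and 20.8 in sgControl libraries (1.73 ± 0.07, adjusted p = 3.0e-26). Neither pair of groups overlapped. In THP-1 it was 127, 130 and 125 CPM in DKO and 30.1, 29.1 and 30.4 in SKO libraries, against 41.4, 43.0 and 41.0 in sgControl libraries. DKO was higher (1.71 ± 0.05) and SKO lower (-0.48 ± 0.05). FOS moved least in U937, where DKO libraries had 6.82, 6.08 and 8.21 CPM and SKO libraries 6.64, 5.58 and 4.87, against 5.85, 5.57 and 5.60 in sgControl libraries. The U937 DKO call (0.30 ± 0.13, adjusted p = 0.045) did not pass with DESeq2 (adjusted p = 0.093) or with any 1 of 6 libraries left out (all sgControl, SKO replicate 2, DKO replicates 1 and 3, adjusted p = 0.050 to 0.27), and the SKO value was 0.01 ± 0.13. FOS was higher with TPA than without in all 3 U937 groups, by log2 fold changes of 3.04 ± 0.08 in DKO, 2.93 ± 0.09 in SKO and 3.34 ± 0.09 in sgControl. Within TPA, FOS was the only member not called in DKO (-0.02 ± 0.05, adjusted p = 0.75), with means of 56.0 against 57.2 CPM, and it was lower in SKO (42.7 CPM, -0.42 ± 0.05).

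FOSB, a close relative of FOS, had a lower mean CPM per kilobase than FOS in all 13 groups. In untreated U937 it was 5.28, 6.99 and 7.30 CPM in DKO and 2.92, 2.78 and 2.89 in SKO libraries, against 4.33, 4.25 and 3.48 in sgControl libraries. DKO lay above and SKO below sgControl, at 0.69 ± 0.15 (adjusted p = 0.00013) and -0.50 ± 0.16 (adjusted p = 0.0072). Under TPA the DKO mean of 14.04 CPM was above the sgControl mean of 10.48 (0.43 ± 0.09), and the SKO mean of 9.77 was not called (-0.09 ± 0.09, adjusted p = 0.42). MOLM-13 SKO had 5.51 and 6.30 CPM against 1.36 and 1.89 in sgControl libraries (1.85 ± 0.19). In THP-1 DKO, 1 library at 2.26 CPM stood above the others at 1.01 and 1.05, and the change over sgControl of 1.196 ± 0.41 became 0.70 without that library (adjusted p = 0.19).

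JUN, the AP-1 protein that can pair with itself as well as with FOS, rose with each step in U937. It was 94.6, 87.5 and 94.6 CPM in DKO and 41.3, 35.3 and 32.4 in SKO libraries, against 16.6, 14.1 and 17.2 in sgControl libraries. The 3 groups did not overlap, with log2 fold changes over sgControl of 2.53 ± 0.08 in DKO (adjusted p = 7.5e-22) and 1.19 ± 0.08 in SKO (adjusted p = 8.0e-14). Under TPA it was 733, 815 and 798 CPM in DKO and 255, 246 and 275 in SKO libraries, against 268, 280 and 269 in sgControl libraries. DKO was higher (1.53 ± 0.04, adjusted p = 3.6e-22), while SKO overlapped with sgControl (-0.07 ± 0.04, adjusted p = 0.17). OCI-AML-3 DKO libraries had 83.4 and 89.4 CPM against 13.1 and 13.4 in sgControl libraries (2.71 ± 0.07, adjusted p = 1.0e-33), the largest change of any member in that line. THP-1 DKO had a mean of 26.6 CPM against 13.1 in sgControl (1.12 ± 0.08), and THP-1 SKO had 13.03 CPM (0.00 ± 0.08). MOLM-13 libraries ran between 0.588 and 1.45 CPM with no call (-0.38 ± 0.40, adjusted p = 0.42).

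JUNB, an AP-1 protein known to restrain proliferation of myeloid cells in mice, was the most evenly expressed member. Under TPA it was 186, 206 and 192 CPM in DKO and 102, 96.7 and 111 in SKO libraries, against 58.2, 60.3 and 63.6 in sgControl libraries. The 3 groups were apart, with changes of 1.69 ± 0.05 (adjusted p = 1.9e-21) and 0.77 ± 0.05 (adjusted p = 3.1e-13). Untreated U937 libraries had 42.2, 35.1 and 38.6 CPM in DKO and 36.8, 36.3 and 31.2 in SKO, against 28.8, 28.4 and 29.9 in sgControl. These calls of 0.41 ± 0.07 and 0.26 ± 0.07 compare with medians of 0.44 and 0.37 over the 330 genes of its 20 Mb bin of chromosome 19, which also holds KLF2. Under TPA the bin medians were 0.39 in DKO and 0.40 in SKO. JUNB was higher in MOLM-13 SKO (120 against 53.7 CPM, 1.17 ± 0.05) and lower in THP-1 SKO (17.7 against 30.8 CPM, -0.79 ± 0.07). In THP-1 DKO the libraries overlapped with sgControl (0.16 ± 0.07, adjusted p = 0.037), and this call did not pass with DESeq2 (adjusted p = 0.053) or without sgControl replicate 2 or 3 or any DKO library (adjusted p = 0.078 to 0.17). JUNB shares 259 exon bases with HOOK2 on the other strand.

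ATF3, known to limit inflammatory genes in macrophages, gave with NR4A3 the largest DKO changes under TPA. It was 297, 299 and 326 CPM in DKO and 45.1, 42.5 and 42.9 in SKO libraries, against 19.5, 18.7 and 20.3 in sgControl libraries. The 3 groups did not overlap, at 3.99 ± 0.05 for DKO (adjusted p = 5.7e-30) and 1.16 ± 0.05 for SKO (adjusted p = 8.6e-17). Without TPA it was 7.58, 7.74 and 8.0 CPM in DKO and 3.89, 2.46 and 3.34 in SKO libraries, against 2.81, 2.45 and 1.83 in sgControl libraries. DKO was apart (1.70 ± 0.17, adjusted p = 2.9e-10), while SKO overlapped with sgControl and its call (0.44 ± 0.18, adjusted p = 0.032) did not pass with DESeq2 (adjusted p = 0.067) or without sgControl replicate 3, SKO replicate 1 (adjusted p = 0.22) or SKO replicate 3 (adjusted p = 0.071). The DKO effect was larger with TPA by 2.31 ± 0.15 (adjusted p = 1.1e-15). In THP-1 ATF3 was lower in both, with means of 4.92 CPM in DKO and 3.42 in SKO against 8.15 in sgControl (-0.62 ± 0.13 and -1.24 ± 0.13). No change was called in MOLM-13 SKO (-0.05 ± 0.21) or OCI-AML-3 DKO (0.00 ± 0.16).

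NR4A3, which with its relative NR4A1 suppresses myeloid leukaemia in mice, was near the limit of counting in untreated U937 cells. It was 0.597, 0.696 and 0.407 CPM in DKO and 0.175, 0.588 and 0.243 in SKO libraries, against 0.0951, 0.142 and 0.0571 in sgControl libraries, which is 61 and 37 reads against 12. Both knockouts were called higher (2.47 ± 0.61, adjusted p = 0.00066, and 1.71 ± 0.64, adjusted p = 0.020), and the SKO call did not pass without sgControl replicate 1 (adjusted p = 0.056), sgControl replicate 3 or SKO replicate 2 (adjusted p = 0.25). Under TPA it was 71.3, 84.6 and 72.1 CPM in DKO and 18.4, 18.6 and 16.9 in SKO libraries, against 3.79, 2.58 and 3.26 in sgControl libraries. The 3 groups were far apart, at 4.58 ± 0.10 (adjusted p = 1.7e-24) and 2.49 ± 0.11 (adjusted p = 4.2e-17). TPA over untreated gave 7.09 ± 0.155 in DKO, 5.76 ± 0.19 in SKO and 4.96 ± 0.31 in sgControl cells. In THP-1, SKO was lower (0.281 against 1.01 CPM, -1.83 ± 0.46) and DKO was not called (0.568 CPM, -0.72 ± 0.44, adjusted p = 0.15).

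KLF2 was nearly silent in untreated U937 sgControl cells, with 2, 2 and 0 reads. It was 1.93, 1.63 and 2.68 CPM in DKO and 0.299, 0.641 and 0.426 in SKO libraries, against 0.0475, 0.0472 and 0 in sgControl libraries. The ratio of reads per total was 64.4 in DKO (exact 95% interval 24.8 to 238) and 13.2 in SKO (4.86 to 50.5). TPA over untreated in sgControl cells was a ratio of 15.3 (5.66 to 57.9), from 59 reads against 4. All these intervals cover counting error only. They are too narrow, because each mate of a pair was counted singly in untreated U937. Under TPA KLF2 was 6.04, 5.74 and 4.37 CPM in DKO and 1.66, 1.71 and 2.26 in SKO libraries, against 0.434, 0.469 and 0.557 in sgControl libraries, with changes of 3.47 ± 0.24 (adjusted p = 3.5e-13) and 1.95 ± 0.25 (adjusted p = 2.5e-07). In THP-1 it was 5.69 CPM in DKO and 2.88 in SKO against 1.93 in sgControl (1.67 ± 0.18 and 0.59 ± 0.19). The THP-1 SKO call did not pass without sgControl replicate 1 (adjusted p = 0.061) or 2 (adjusted p = 0.067). In MOLM-13 it was 2.26 CPM in SKO against 1.18 in sgControl (0.93 ± 0.27). OCI-AML-3 went the other way, with 2.43 and 3.94 CPM in DKO against 15.8 and 12.03 in sgControl libraries (-2.12 ± 0.15, adjusted p = 2.5e-17).

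**Figure D4:**
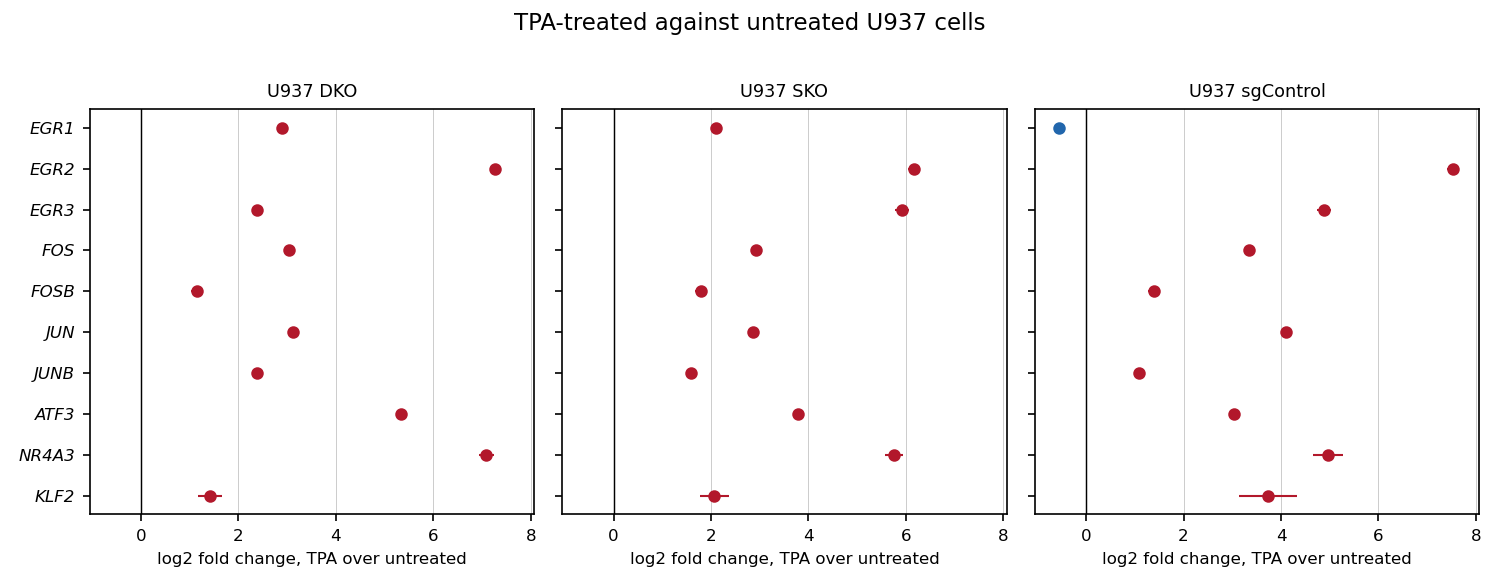
Log2 fold change of TPA-treated over untreated U937 cells (x axis) for each gene in DKO, SKO and sgControl cells, with bars of 1 SE and all points past an adjusted p of 0.05. EGR1 is the only gene with opposite signs, at 2.89 in DKO and 2.10 in SKO against -0.55 in sgControl.

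Differences between effects were tested directly. With TPA, 4 members had a higher DKO effect than without TPA (21.7% of 16989 genes) and 4 a lower one (27.8% of genes), and for SKO 4 were higher (19.6%) and 3 lower (18.1%). JUN had a smaller knockout change with TPA, by -0.98 ± 0.09 for DKO (adjusted p = 5.7e-12) and -1.25 ± 0.09 for SKO (adjusted p = 7.3e-14), although its CPM was higher in every TPA-treated library. JUNB had a larger one, by 1.30 ± 0.09 and 0.52 ± 0.09. The knockouts of U937 and THP-1 also differed. The SKO effect was higher in U937 than in THP-1 for 9 members (24.1% of 18715 genes) and lower for none (22.7% of genes). The DKO effect was higher in U937 for 7 (29.7% of genes) and lower for EGR1 and FOS (24.7% of genes). For EGR1 the DKO difference was -2.52 ± 0.11 (adjusted p = 9.2e-21), and for FOS it was -1.37 ± 0.12 (adjusted p = 2.9e-12). The median over the 20 Mb bin of EGR2 was 1.02 for the difference of SKO effects and 1.03 for that of DKO effects, beside 4.67 ± 0.44 and 2.11 ± 0.39 for EGR2. Over the bin of JUNB and KLF2 the medians were 0.42 and 0.69, beside 1.07 ± 0.11 and 0.29 ± 0.10 for JUNB. All 4 tests use the untreated U937 sgControl libraries, so their values are not independent of each other.

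**Figure D5:**
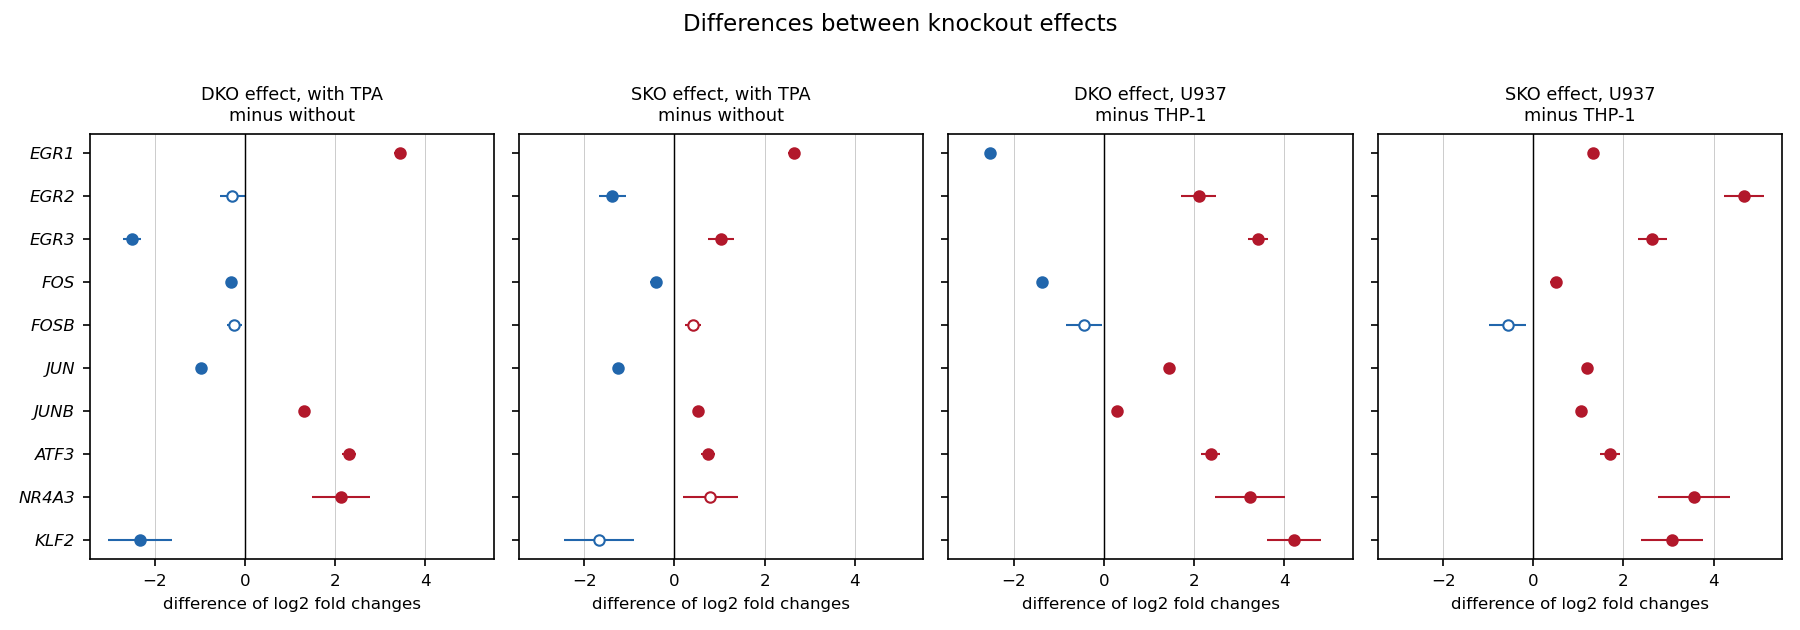
Difference of log2 fold changes over sgControl (x axis) for each gene, with TPA minus without TPA in U937 (left pair of panels) and U937 minus THP-1 (right pair), with bars of 1 SE and open points where the adjusted p was above 0.05. EGR1 lies at 3.44 and 2.65 in the TPA panels and at -2.52 in the DKO panel of the lines.

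The other genes of the pathway were read from lists of 22 other immediate early genes, 20 genes of the inducing cascade and its promoter-bound activators, 13 feedback inhibitors and 11 partners and co-repressors. With TPA in sgControl cells, 17 of 19 tested other immediate early genes were higher and 1 lower (median 1.74, where 34.6% of all genes were called higher and 33.2% lower with a median of 0.05), led by IER3, an apoptosis regulator, with 52.9 against 0.475 CPM (log2 fold change 6.82 ± 0.10), and PHLDA1 with 232 against 2.31 CPM. Of the feedback inhibitors 11 of 13 were higher and 1 lower (median 1.28). In TPA-treated DKO against sgControl, where 34.1% of all genes were called higher and 36.5% lower with a median of -0.05, 18 of the 19 were higher and 1 lower (median 0.89), with IER3 at 277 against 52.9 CPM and KLF6 at 816 against 249 CPM, and 8 feedback inhibitors were higher and 3 lower (median 0.52). DUSP1, a phosphatase that switches off p38 and JNK, was 48.6 against 9.82 CPM there (2.32 ± 0.07). Of the 11 partners and co-repressors, 5 were higher and 4 lower there (median 0.03). Among them BATF2, a bZIP protein of interferon-treated macrophages, stood at 119 CPM in DKO against 0.586 in sgControl (7.65 ± 0.10).

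In untreated U937, 33.2% of all genes were called higher and 34.5% lower in DKO, and 30.7% and 31.2% in SKO, with medians of -0.01 and 0.00. Against this, 13 of 19 other immediate early genes were higher and 3 lower in DKO (median 0.45), with JUND at 47.4 against 11.7 CPM, and 12 and 3 in SKO (median 0.28), with MYC lower at 177 against 508 CPM (-1.52 ± 0.04). SRF, serum response factor itself, was 291 CPM in DKO (1.09 ± 0.04) and 248 in SKO (0.86 ± 0.04) against 136 in sgControl. Cascade genes were higher for 14 of 20 in DKO and 15 in SKO, and lower for 1 in each (medians 0.22 and 0.18).

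In THP-1, 31.9% of all genes were called higher and 33.7% lower in DKO (median 0.05), and 20.6% and 22.8% in SKO (median 0.01). There 13 of 22 other immediate early genes were higher and 3 lower in DKO (median 0.50), with NR4A1 at 4.89 against 0.700 CPM, and 8 were higher and 8 lower in SKO (median -0.05). Of the 20 cascade genes, 3 were higher and 9 lower in THP-1 DKO (median -0.07), and 4 higher and 7 lower in THP-1 SKO (median -0.02). Among them ELK1, a ternary complex factor that recruits the ERK signal to CArG boxes, changed most. It was 4.55 CPM in DKO and 1.90 in SKO against 36.1 in sgControl (-2.88 ± 0.11 and -4.23 ± 0.12). In MOLM-13 SKO, 31.8% of all genes were higher and 32.2% lower (median 0.02). There 15 of 21 other immediate early genes were higher and 2 lower (median 0.53), and BTG2, which slows the cell cycle, was 77.7 against 13.8 CPM. SPRED1, an inhibitor of the RAS to ERK signal, was 0.550 CPM in MOLM-13 SKO against 8.99 in sgControl (-4.03 ± 0.23), while 3 of 11 feedback inhibitors were higher and 4 lower (median 0.09), shares near those of all genes. In OCI-AML-3 DKO, where 24.3% of all genes were higher and 25.6% lower (median 0.02), 9 of 21 other immediate early genes were higher and 4 lower (median 0.07), with PHLDA1 at 15.1 against 87.9 CPM.

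The patterns over the 13 group means of log2 CPM were most alike for ATF3 and NR4A3 (Pearson's r = 0.97), EGR2 and NR4A3 (0.92) and EGR2 and EGR3 (0.91), and least for EGR1 and FOSB (-0.27). Among 10002 or 10003 genes whose mean over the groups and whose range over them each reached 1 on the log2 CPM scale, the closest genes were RUSC2 for JUN (0.98), TDRD9 for FOSB (0.98), IGF2R for NR4A3 (0.98), DYNC1H1 for ATF3 (0.98), PLA2G15 for EGR2 (0.96), MCOLN1 for JUNB (0.95) and MILR1 for FOS (0.92). EGR1 had no gene above BNIP3 at 0.79, and KLF2 none above PHF21A at 0.86. These groups share lines, sgControl libraries and the TPA treatment of 3 groups, and the values are given as a description.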

How the data were processed

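Per the labels' protocols, a directional kit was used for the poly(A) RNA libraries. The submitters' processing notes name fastp 0.23.4, STAR 2.7.11b, Subread 2.0.6 and the build hg38. The deposited values are whole read counts per gene, not normalized by the authors. Per the file headers, featureCounts 2.0.6 with GENCODE 38 gene names counted the untreated U937 and THP-1 reads, each mate singly, ignoring strand and dropping reads with several places or genes. The counting command of the other deposited table is not given in the sources used here.

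edgeR 4.0.16 in R 4.3.3 tested the counts (default expression filter, TMM, quasi-likelihood test, Benjamini-Hochberg adjusted p at 0.05 over all genes tested). Each line and treatment had 1 fit without covariates, and TPA effects and differences of effects came from fits of 18 libraries. The steps were tested on simulated data. Alternatives were DESeq2 1.42.0, its size factors, no filter, a replicate block, a fit of the compared groups alone, each library left out and, chosen after seeing the data, a term for a code in untreated U937 column names. Members and gene lists were chosen with earlier results of these data known. The text may name all members, SUV39H1, SUV39H2, up to 2 called genes per pathway list and comparison, and the 3 genes nearest in pattern. VWF, LYZ and other single markers were picked after their values were seen. Bin medians use 20 Mb bins with at least 30 genes whose mean log2 CPM reached 2. Replicates of a group differed by more than sampling noise. A result for 1 gene of the pathway lists is not reported here.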

Additional observations from a re-analysis of the deposited data

Results flagged for a closer look

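Several members are listed because a knockout effect differed between conditions or lines by a direct test of the difference (edgeR, adjusted p under the threshold). Values are differences of log2 fold changes over sgControl. For the SKO effect with TPA minus that without TPA in U937 they were 2.65 for EGR1, -1.38 for EGR2, 1.04 for EGR3, -0.42 for FOS, -1.25 for JUN, 0.52 for JUNB and 0.74 for ATF3. EGR1 was called lower in SKO without TPA and higher with it, while the SKO values of EGR2 and EGR3 without TPA were not called. For the DKO effect with TPA minus that without TPA they were 3.44 for EGR1, -2.50 for EGR3, -0.30 for FOS, -0.98 for JUN, 1.30 for JUNB, 2.31 for ATF3, 2.13 for NR4A3 and -2.33 for KLF2.

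For the SKO effect in U937 minus that in THP-1 the differences were 1.33 for EGR1, 4.67 for EGR2, 2.64 for EGR3, 0.50 for FOS, 1.201 for JUN, 1.07 for JUNB, 1.69 for ATF3, 3.56 for NR4A3 and 3.08 for KLF2, all above 0. For the DKO effect in U937 minus that in THP-1 they were -2.52 for EGR1, 2.11 for EGR2, 3.42 for EGR3, -1.37 for FOS, 1.45 for JUN, 0.29 for JUNB, 2.37 for ATF3, 3.24 for NR4A3 and 4.21 for KLF2. The JUNB difference is smaller than the median of 0.69 over its bin of chromosome 19. The KLF2 and NR4A3 values against untreated U937 rest on 4 and 12 reads in the sgControl group. The FOS value of -0.30 did not pass with DESeq2 (adjusted p = 0.14), its size factors (adjusted p = 0.11), the replicate block (adjusted p = 0.064) or any 1 of 8 libraries left out (adjusted p = 0.055 to 0.26), and the JUNB value of 0.29 did not with DESeq2 (adjusted p = 0.051) or with any 1 of 5 libraries left out (adjusted p = 0.10 to 0.35). The SKO values with TPA minus without did not pass for EGR3 without untreated U937 sgControl replicate 2 (0.83, adjusted p = 0.053) and for FOS without untreated U937 SKO replicate 1 (-0.28, adjusted p = 0.11), nor did the DKO value for NR4A3 without untreated U937 sgControl replicate 2 (1.78, adjusted p = 0.10). No group has 4 or more libraries, so single libraries were not tested for standing apart.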

How the results depend on the processing

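The count of members called stayed within 1.5 times its value under every alternative run, in all 18 comparisons, and no called member changed direction. With the replicate number as a block, the count was 7 in place of 8 for the DKO effect with TPA minus that without, where FOS lost its call (adjusted p = 0.064), and was the same in the other 17 comparisons. Same-numbered replicates did not deviate together (correlations of -0.04 to 0.09), so the numbers were not taken to pair libraries.

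Reversed signs came from 10 values that were not called. JUN in THP-1 SKO was 0.00139 with DESeq2 size factors, 0.000498 with DESeq2, 0.00188 without the filter, 3.03e-05 with the replicate block, 0.0011 with the compared groups only and -0.0604 to 0.0350 with 1 library left out. FOS in U937 TPA DKO was 0.0315 with DESeq2 size factors, 0.0260 with DESeq2, 0.00941 with the compared groups only and -0.0439 to 0.0246 with 1 library left out. Leaving out 1 library gave -0.11 to 0.10 for FOS in U937 SKO, -0.0325 to 0.17 for EGR1 in U937 DKO over SKO, -0.34 to 0.39 for FOSB in THP-1 SKO, -0.24 to 0.12 for ATF3 and -0.86 to 0.39 for JUN in MOLM-13 SKO, -0.0716 to 0.22 for EGR3 and -0.14 to 0.12 for ATF3 in OCI-AML-3 DKO, and -0.71 to 0.0739 for the FOSB difference between the DKO effects of U937 and THP-1. A group of 2 left with 1 library is assumed to vary like the other group. Counts of members called with 1 library left out ran from 5 to 7 in U937 SKO and from 3 to 4 in OCI-AML-3 DKO, where calls over all genes were 5020 to 6214 with a library left out and 8065 without. Low counts limit KLF2 and NR4A3 in untreated U937 and EGR2 in MOLM-13.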
